A study of Mus musculus with 40 samples.

Results

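The cluster of miR-183, miR-96 and miR-182 is a group of 3 microRNAs that are encoded next to each other and are known to be made from a shared primary transcript. Its members here are mmu-miR-183-5p, mmu-miR-96-5p and mmu-miR-182-5p, written below without the species prefix. They were taken by name from a count table of mature mouse microRNAs in total blood, in which they are 3 of 1915 rows. All 3 had reads. The libraries came from male C57B/6J wild-type mice bought from Janvier Labs and single housed, bled when they were 12, 13.5, 15 and 16.5 months old. Each age has 10 libraries, which makes 40. The blood was drawn from the retro-orbital sinus under isoflurane with a heparinized capillary, alternating the eyes. The mice of the learning group were trained in a water maze at all 4 ages, and no source used here says whether any library came from the home cage group, which was not tested. The order of bleeding and training at 12 months is described in 2 ways by the study. Mice of the learning group were bled and trained again at each age, so age, repeated bleeding and maze experience cannot be told apart. The study also bled untrained mice as a control for training, a comparison not made here. No label says that the libraries of an age came from separate animals, and the study followed the same mice over time, so p-values measure only the spread between these libraries.

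MicroRNAs are short RNAs that guide Argonaute proteins to messenger RNAs, mostly through pairing of the seed, the stretch from the second to the eighth base. The cluster is known from sense organs, where it is abundant in photoreceptors, hair cells and sensory neurons, and changes in the seed of miR-96 cause hearing loss. Members are also made in some epithelia and in activated lymphocytes. In whole blood, which here is bulk RNA of all cells and plasma, fewer cells of a type and less RNA per cell cannot be told apart.

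The mature sequences are shown because the members are so alike that their counts invite comparison, while their seeds are not the same. They are RefSeq entries for GRCm38.p6, given from the 5′ end, with the seed in capitals.
miR-183-5p: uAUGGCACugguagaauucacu
miR-96-5p: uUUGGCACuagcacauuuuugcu
miR-182-5p: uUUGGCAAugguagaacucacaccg

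Counted from 1 at the 5′ end, miR-96-5p and miR-182-5p differed within the seed by C8A, with miR-96-5p as the reference. miR-96-5p and miR-183-5p differed by U2A, again with miR-96-5p first. miR-182-5p and miR-183-5p differed at both positions, U2A and A8C with miR-182-5p first, so that 5 of the 7 seed bases matched. Each member therefore had a seed of its own. Beyond the seed, miR-182-5p and miR-183-5p shared the run UGGUAGAA from position 9. Among 1679 mature mouse sequences, miR-96-5p shared its seed with miR-1271-5p, for which the table analysed here has no row, and the seeds of miR-183-5p and miR-182-5p occurred in no other entry.

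All 3 hairpins lie on the minus strand of chromosome 6 (GRCm38), in the transcription order Mir183, Mir96, Mir182. Mir183 spans chr6:30169668-30169737, Mir96 chr6:30169446-30169551 and Mir182 chr6:30165918-30165992. Mir183 and Mir96 are separated by 116 bases and Mir96 and Mir182 by 3453 bases. No annotated gene overlaps them, so the cluster is intergenic. The nearest neighbour is the lincRNA Rncr4, 3156 bases away on the plus strand. The nearest coding genes are Nrf1, a transcription factor of nuclear genes for mitochondrial proteins, 12460 bases away, and Ube2h, a ubiquitin-conjugating enzyme, 41552 bases away.

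The libraries held 2469196 to 21386209 counts, with a median of 9376501.5. Most counts belonged to miR-486, a red-cell microRNA, and 93002 to 1739959 counts per library lay outside it. The 3 members made up 0.0293 to 0.528% of those (median 0.0539%). Median totals were 12497974 at 12 months, 12505001.5 at 13.5 months, 6196820 at 15 months and 8771193 at 16.5 months, so the 15- and 16.5-month libraries were shallower at the median. Column names of the 12- and 16.5-month libraries share a form, while the 13.5- and 15-month libraries each have their own, and what the form marks is not given in the sources used here.

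The members were detected very unequally. miR-182-5p had 19622 reads over the 40 libraries, or 95.4% of the reads of the cluster, and was read in all 40. miR-183-5p had 922 reads, 4.48% of the cluster, and was read in 39 libraries. miR-96-5p had 18 reads, 0.0875% of the cluster, and was read in 10 libraries. By mean level they ranked 62, 180 and 487 among the 1016 microRNAs with any read. Reads came from the 5′ arm in nearly all cases. The opposite arm miR-183-3p had 16 reads in 11 libraries, at most 4 in any of them, so that 98.3% of the reads of this hairpin were from miR-183-5p. miR-96-3p and miR-182-3p had 0 reads.

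Levels are given as CPM, the counts of a microRNA per unit of library total as scaled by TMM factors, which set aside the few dominant microRNAs. miR-182-5p passed the filter of more than 100 reads in at least 20 libraries and was tested with edgeR among 105 microRNAs. miR-183-5p was tested among the 345 microRNAs with more than 1 read in at least 20 libraries. miR-96-5p passed neither filter and was not tested.

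miR-182-5p, the dominant member, did not differ between ages beyond the spread of the libraries. At 12 months its counts ran from 159 through a median of 436.5 to 5684, which gave 16.5, 26.8 and 242.6 CPM. At 13.5 months the lowest, median and highest levels were 19.2, 28.8 and 82.9 CPM, from 180, 428 and 605 reads as the lowest, median and highest counts. The libraries of both ages overlapped widely, and the highest at 12 months stood far above all of them. It was 8.38 times the median of the 38 libraries other than it and the highest at 16.5 months. At 15 months the levels were 26.2, 33.3 and 79.6 CPM (61, 160 and 584 reads), and at 16.5 months 18.7, 26.5 and 140.8 CPM (57, 261.5 and 668 reads). All 4 ages overlapped, and in the 16.5-month group a single library stood far above the next, at 33.8 CPM.

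**Figure D1:**
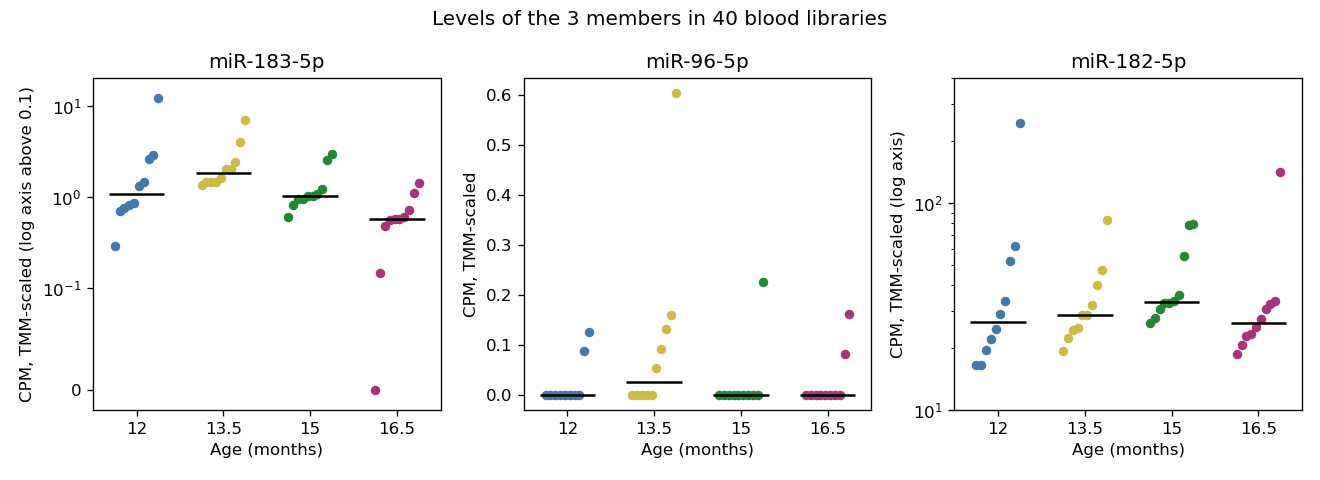
Levels of miR-183-5p, miR-96-5p and miR-182-5p in TMM-scaled CPM (y axis, logarithmic for miR-182-5p and, above 0.1, for miR-183-5p) against age in months. Each point is 1 library (10 per age), sorted within its age, and the line is the median: miR-183-5p medians were 1.10, 1.82, 1.04 and 0.575 CPM, and miR-182-5p showed 1 high library at 12 months (242.6 CPM) and 1 at 16.5 months (140.8 CPM).

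Over the 4 ages the edgeR quasi-likelihood test gave miR-182-5p a Benjamini-Hochberg adjusted p of 0.632, in a fit in which 61% of the 105 microRNAs were called at a threshold of 0.05. Mean log2 levels with their SD were 5.10 ± 1.18, 5.01 ± 0.62, 5.32 ± 0.59 and 4.94 ± 0.82 from the youngest to the oldest age (n = 10 each). The largest of the 6 differences between ages was the one between 13.5 and 12 months, a log2 fold change of -0.56 (SE 0.44, 95% interval -1.45 to 0.32, edgeR adjusted p = 0.363), where 29.5% of the microRNAs were called. At 15 against 12 months the log2 fold change was -0.24 (SE 0.44, edgeR adjusted p = 0.723, background 23.8% called), although the median level was higher at 15 months and 9 of its 10 libraries lay above the 12-month median. At 16.5 against 12 months it was -0.40 (SE 0.44, edgeR adjusted p = 0.512, background 23.8% called). The fitted means of the 12-month group contain the library of 242.6 CPM, and without it all 3 differences changed sign, to 0.19, 0.61 and 0.39 on the log2 scale, none of them called.

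Between the later ages the differences of miR-182-5p were also within their error. The log2 fold change was 0.32 at 15 against 13.5 months (SE 0.44, edgeR adjusted p = 0.557, background 47.6% called), 0.16 at 16.5 against 13.5 months (SE 0.44, edgeR adjusted p = 0.801, background 40% called) and -0.16 at 16.5 against 15 months (SE 0.44, edgeR adjusted p = 0.827, background 28.6% called). In the last of these, 5 of the 10 libraries at 16.5 months lay below the lowest at 15 months. Without the high libraries of 12 and 16.5 months the log2 fold change at 16.5 against 15 months was -0.77 with an edgeR adjusted p of 0.0313, and that at 16.5 against 13.5 months turned to -0.44. The 95% interval of each of the 6 comparisons reached past 1 log2 unit in 1 direction, the lowest bound being -1.45 and the highest 1.22.

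miR-183-5p, the second most abundant member, was lower at 16.5 than at 13.5 months, and a fall from 12 to 16.5 months was called only with 1 high library of 12 months in the fit. At 12 months its counts were 4 in the lowest library, 13.5 at the median and 283 in the highest, or 0.295, 1.10 and 12.1 CPM. At 13.5 months they were 10, 28.5 and 47 reads, or 1.35, 1.82 and 7.09 CPM as the lowest, median and highest levels. The 13.5-month libraries were all above the 12-month median, while the highest single library was again one of 12 months. At 15 months the counts were 2, 5 and 19, with levels of 0.603, 1.04 and 2.94 CPM, and at 16.5 months they were 0, 6 and 27, with levels of 0, 0.575 and 1.44 CPM. The library with 0 reads held 5544018 counts in all, and a count of 0 allows up to 1.09 CPM there. At 16.5 months 9 of 10 libraries lay below the lowest library of 13.5 months, and the groups overlapped in the remaining one.

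For miR-183-5p the edgeR quasi-likelihood test over age gave an adjusted p of 0.0104, where 39.1% of the 345 microRNAs were called. In age order the mean log2 levels with their SD were 0.67 ± 1.31, 1.22 ± 0.72, 0.45 ± 0.62 and -0.53 ± 0.91 (n = 10 each). At 16.5 against 13.5 months miR-183-5p fell by 1.74 on the log2 scale, to 0.299 of the earlier level (SE 0.49, 95% interval -2.74 to -0.74, edgeR adjusted p = 0.00805), and all 10 libraries were below the 13.5-month mean. In this comparison 21.4% of the microRNAs were called and 11.6% were called lower. The call held when any 1 of the 40 libraries was left out, with edgeR adjusted p between 0.000483 and 0.0252. These ages differ in the form of their column names, and the part of that difference in the result was not tested.

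At 16.5 against 12 months, ages that share a form of column name, miR-183-5p fell by 1.76 on the log2 scale (SE 0.48, 95% interval -2.74 to -0.78, edgeR adjusted p = 0.0146), and 9 of 10 libraries were lower than the 12-month mean. Here 13.9% of the 345 microRNAs were called and 8.99% were called lower. This call rested on the 12-month library with 283 reads. Without it the log2 fold change was -0.88 with an edgeR adjusted p of 0.145, and with the number that recurs in the column names as a replicate block it was -1.36 with an edgeR adjusted p of 0.0503.

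The remaining comparisons of miR-183-5p missed the threshold. The log2 fold change was -0.02 at 13.5 against 12 months (SE 0.42, edgeR adjusted p = 0.975, background 15.7% called), although 10 of 10 libraries at 13.5 months were above the 12-month median, and 0.85 without the highest 12-month library (edgeR adjusted p = 0.0971). At 15 against 12 months it was -0.84 (SE 0.49, 95% interval -1.83 to 0.15, edgeR adjusted p = 0.299, background 11.3% called), and 0.03 without that library. At 15 against 13.5 months it was -0.82 (SE 0.50, 95% interval -1.83 to 0.19, edgeR adjusted p = 0.246, background 27% called), with 8 of 10 libraries below the lowest of 13.5 months. At 16.5 against 15 months it was -0.92 (SE 0.55, 95% interval -2.05 to 0.20, edgeR adjusted p = 0.312, background 12.5% called). Ordered by median, the levels ran 13.5, 12, 15 and 16.5 months, and no neighbours in this order differed beyond their spread.

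The choice of scaling mattered most for the 15-month libraries. With library totals in place of TMM factors, the median log2 fold change of all 345 microRNAs at 15 against 12 months was -0.80, and that of miR-183-5p was -1.55 (edgeR adjusted p = 0.0170). At 15 against 13.5 months the median was -0.71 and miR-183-5p was at -1.58 (edgeR adjusted p = 0.0168). Calls were common under this scaling, so these 2 do not set miR-183-5p apart. Of the 345 microRNAs 158 were called at 15 against 13.5 months, and more of them at 15 against 12 months. miR-182-5p stood at -0.96 at 15 against 12 months under this scaling (edgeR adjusted p = 0.0410), where 84 of the 105 microRNAs were called. The median of the 105 was -0.84, so that miR-182-5p lay close to the median of all.

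miR-96-5p, the member known for its role in hair cells, was near the limit of detection. The libraries of 12 months held 5 reads in all, those of 13.5 months 9, those of 15 months 1 and those of 16.5 months 3. Reads were found in 2, 5, 1 and 2 of the 10 libraries, with at most 3, 4, 1 and 2 reads in any of them. Pooled over the libraries of an age the level was 0.0303 CPM at 12 months (exact Poisson 95% interval 0.00983 to 0.0706), 0.0678 at 13.5 months (0.0310 to 0.129), 0.0217 at 15 months (0.000549 to 0.121) and 0.0297 at 16.5 months (0.00612 to 0.0868). These intervals overlapped and cover counting error only. A library with 0 reads allowed up to 0.121 to 1.72 CPM, depending on its depth, so no difference between ages was detectable at this depth.

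A comparison within each library does not depend on the scaling between libraries. Of the reads of miR-183-5p and miR-182-5p together, miR-183-5p made up 1.50% in the lowest library of 12 months, 4.38% at the median and 8.09% in the highest. At 13.5 months the lowest, median and highest shares were 3.48, 6.68 and 8.40%. At 15 months they were 1.75, 3.10 and 3.62%, and at 16.5 months 0, 1.85 and 4.94%. The share was high in the 13.5-month libraries and low in the later ones: 8 of the 10 libraries at 15 months and 8 of the 10 at 16.5 months lay below the lowest at 13.5 months, with some overlap. Single shares rest on few reads. The lowest at 12 months had an exact binomial 95% interval of 0.410 to 3.79% and the highest 4.49 to 13.2%. For 13.5 months these were 2.11 to 5.38% and 5.78 to 11.7%, for 15 months 0.213 to 6.19% and 1.19 to 8.25%. At 16.5 months the lowest library had 0 of 57 reads, with an exact binomial 95% interval of 0 to 6.27% (a limit of 3 counts allows up to 5.26%), and the highest had an interval of 3.28 to 7.10%. Pooled over libraries, the shares were 4.48% (exact binomial 95% interval 4.09 to 4.88%), 6.45% (5.75 to 7.21%), 3.05% (2.36 to 3.87%) and 2.66% (2.12 to 3.30%) from the youngest to the oldest age, with intervals for counting error only. The pooled 12-month share is mostly that of 1 library, which held 283 of 488 miR-183-5p reads and 5684 of 10417 miR-182-5p reads.

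**Figure D2:**
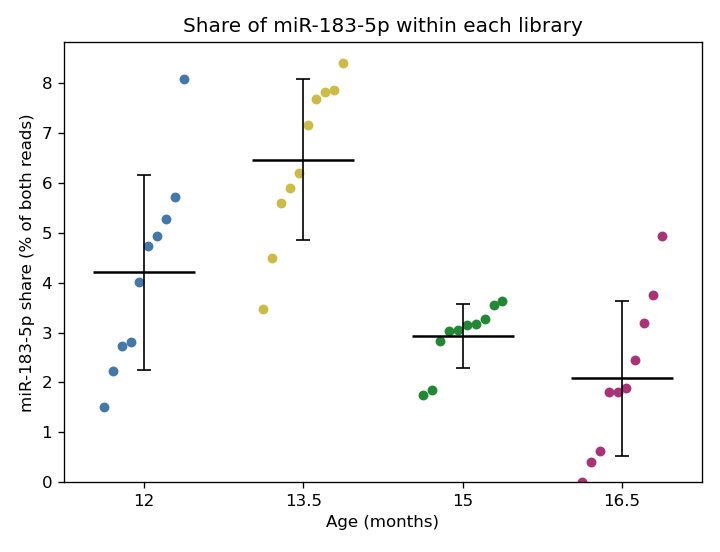
Share of miR-183-5p in the summed reads of miR-183-5p and miR-182-5p (y axis, percent) against age in months. Each point is 1 library, and the bar and whiskers are the mean and SD of 10 libraries: the mean was 6.47% at 13.5 months against 4.21% at 12, 2.93% at 15 and 2.09% at 16.5 months.

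The log2 ratio of miR-183-5p to miR-182-5p, with 0.5 added to both counts, had a mean of -4.61 ± 0.72 in the 10 libraries of 12 months and of -3.87 ± 0.42 in the 10 of 13.5 months (mean ± SD). The difference of 0.74 had an adjusted p of 0.0394 in a two-sided permutation test, with 9 of 10 libraries of 13.5 months above the 12-month mean. This call was lost with medians in place of means (permutation adjusted p = 0.0610) and when any of 3 of the 40 libraries was left out (permutation adjusted p up to 0.0515). At 15 months the mean ratio was -4.93 ± 0.32 and at 16.5 months it was -5.67 ± 1.02 (SD over 10 libraries). Against 13.5 months both fell, by 1.06 and by 1.80 on the log2 scale, each with a permutation adjusted p of 0.00045 and with 10 of 10 libraries below the 13.5-month mean. All adjusted values are over 18 comparisons, 3 pairs of members by 6 pairs of ages.

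Against 12 months the ratio at 16.5 months fell by 1.06 on the log2 scale (permutation adjusted p = 0.0394), with 8 of 10 libraries below the 12-month mean. This call was lost when any of 10 of the 40 libraries was left out, and the difference was -0.29 with a permutation adjusted p of 0.331 when 5 was added to the counts in place of 0.5. The ratios at 15 against 12 months (-0.32, permutation adjusted p = 0.304) and at 16.5 against 15 months (-0.74, permutation adjusted p = 0.0759) missed the threshold. Compared as shares in percent, with nothing added, the mean share was lower by 3.54 percentage points at 15 and by 4.38 at 16.5 months than at 13.5 months, and each difference had a permutation adjusted p of 0.00015 over 6 comparisons. With 5 added to the counts these differences from 13.5 months were -0.42 (permutation adjusted p = 0.0477) and -0.89 (permutation adjusted p = 0.0054). Ratios with miR-96-5p rest on 30 libraries with 0 reads and were not read.

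Between libraries, miR-183-5p and miR-182-5p varied together. Over the 40 libraries Pearson's r of the log2 levels was 0.589 (permutation p = 1e-04, adjusted p = 0.0003 over 3 pairs of members) and Spearman's rho was 0.402 (permutation p = 0.0103, adjusted p = 0.0310). Without the 2 libraries farthest from the median of miR-182-5p, r was 0.600, and on deviations from the age means it was 0.708. Within ages, r was 0.878 at 12 months (permutation p = 0.00319), 0.832 at 13.5 months (permutation p = 0.00785), 0.852 at 15 months (permutation p = 0.00592) and 0.212 at 16.5 months (permutation p = 0.456). Rank correlations within ages were lower, at 0.491, 0.418, 0.600 and 0.285 in age order. The pairs with miR-96-5p gave r of 0.230 with miR-182-5p (adjusted p = 0.140) and 0.440 with miR-183-5p (adjusted p = 0.0118), where most libraries were at 0 reads. For miR-96-5p and miR-183-5p rho was 0.330 (permutation adjusted p = 0.0564). With library totals in place of TMM factors their r was 0.078 (permutation p = 0.630). It was 0.572 without the 2 libraries farthest from the median of miR-183-5p, and 0.405 on deviations from the age means. All of these levels share the scaling of their library.

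**Figure D3:**
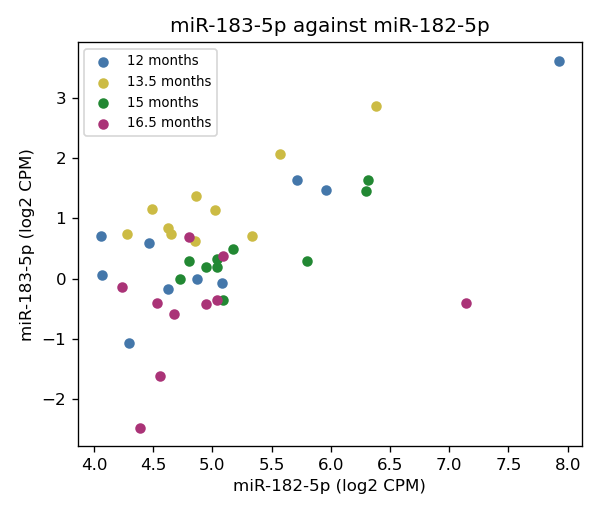
Log2 CPM of miR-183-5p (y axis) against log2 CPM of miR-182-5p (x axis) in 40 libraries, coloured by age. The points of 12, 13.5 and 15 months rise together (r = 0.878, 0.832 and 0.852), and the 16.5-month library highest in miR-182-5p lies low in miR-183-5p.

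The microRNAs whose levels were most like those of each member were sought by Pearson's r over the 40 libraries. Among the 105 well-counted microRNAs, those most like miR-182-5p were miR-10b-5p (r = 0.513), which lies in a Hox gene cluster, miR-148a-3p (r = 0.401), which is abundant in liver, and miR-125b-5p (r = 0.379). Without the libraries of 12 and 16.5 months highest in miR-205-5p these correlations were 0.495, 0.211 and 0.277. Among 343 other microRNAs of the wider set they were miR-205-5p (r = 0.710), known from stratified epithelia, miR-184-3p (r = 0.685), the most abundant microRNA of the corneal epithelium, and miR-204-5p (r = 0.662), known from the retinal pigment epithelium and lens. For miR-183-5p they were miR-100-5p (r = 0.676), miR-143-3p (r = 0.577), known from smooth muscle, and miR-210-3p (r = 0.534), which is induced by hypoxia, with 0.647, 0.402 and 0.547 without those libraries. On deviations from the age means r was 0.577, 0.664 and 0.273 for these 3, so that of miR-210-3p was much lower within ages. For miR-205-5p, miR-184-3p and miR-204-5p with miR-182-5p it was 0.777, 0.738 and 0.659. These values are descriptions over libraries that share animals, depth and scaling.

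**Figure D4:**
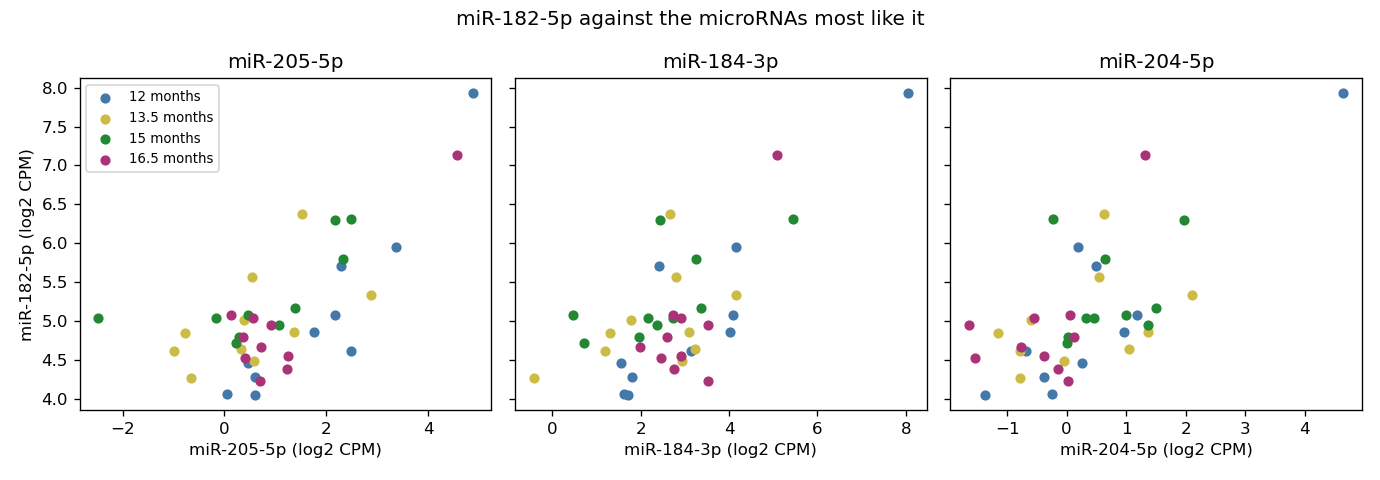
Log2 CPM of miR-182-5p (y axis) against that of miR-205-5p, miR-184-3p and miR-204-5p (x axes) in 40 libraries, coloured by age. The 12-month library at the upper right of each panel has the highest level of all 4 microRNAs, and without it and the 16.5-month library next in miR-205-5p the correlations were 0.510, 0.440 and 0.455.

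The libraries highest in miR-182-5p at 12 and at 16.5 months were also the 2 highest in miR-205-5p. miR-205-5p, miR-184-3p and miR-204-5p were picked for their r with miR-182-5p over the same 40 libraries. High levels of them beside high miR-182-5p therefore follow in part from that choice. In the 12-month library miR-205-5p was at 29.2 CPM, miR-184-3p at 263.8 CPM and miR-204-5p at 24.9 CPM, against medians of 1.34, 6.31 and 0.847 CPM in the other 38 libraries. Its miR-183-5p level was 12.1 CPM, the highest of all, while it had 0 reads of miR-96-5p. High levels there were not limited to eye and epithelial microRNAs. miR-143-3p was at 85.3 CPM (rank 1 of 40) and miR-100-5p at 25.9 CPM (rank 2), against medians of 3.87 and 1.87 CPM in the other 38. miR-210-3p ranked 11. These 3 had been picked for their r with miR-183-5p. In the 16.5-month library, the shallowest of the series, miR-205-5p was at 23.6 CPM, miR-184-3p at 33.9 CPM and miR-204-5p at 2.30 CPM from 4 reads. The other 38 libraries reached up to 10.2, 43.4 and 4.11 CPM, so among these only its miR-205-5p level lay above their range. The 16.5-month library had 1 read of miR-183-5p, and a level of 0.575 CPM that ranked 35 of 40. It ranked 40 of 40 in miR-143-3p (1 read) and in the red-cell microRNA miR-451a, and 12 in miR-100-5p. The 12-month library ranked 20 in miR-451a. The epithelial microRNA miR-200b-3p, chosen after its values were seen, was at 12.0 and 4.02 CPM in these libraries and at most at 2.05 CPM in the others. The neural microRNAs miR-124-3p, miR-9-5p and miR-9-3p were at or near 0, with 2, 38 and 4 reads over all 40 libraries. miR-211-5p, listed with miR-204-5p as a neural and eye microRNA, did not stand out. It was at 0.768 CPM in the 12-month library (rank 10 of 40) and had 0 reads in the 16.5-month library. Whether RNA of tissue around the bleeding site had a part in these levels was not tested.

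The list of neural and eye microRNAs (miR-124-3p, miR-9-5p, miR-9-3p, miR-204-5p and miR-211-5p) was at summed levels of 0.621 to 25.8 CPM at 12 months, 0.813 to 4.49 at 13.5 months, 1.20 to 4.17 at 15 months and 0.329 to 2.87 at 16.5 months. Of its 5 microRNAs 2 were tested, and 1 changed over age, where 39.1% of all 345 were called. That was miR-204-5p (edgeR adjusted p = 0.0128), which fell by 2.43 on the log2 scale at 16.5 against 12 months (edgeR adjusted p = 0.0144) with medians of 0.656 and 0.990 CPM. That fall rested on the 12-month library highest in miR-205-5p, which held 583 of its 1035 reads. Without this library the log2 fold change was -0.67 with an edgeR adjusted p of 0.403, and the edgeR adjusted p over age was 0.0662. Without both libraries highest in miR-205-5p the fold change was -0.78 (edgeR adjusted p = 0.302), but the call over age was kept (edgeR adjusted p = 0.0441). The platelet and endothelial microRNA miR-126a-3p, read 209 times in all, did not pass over age (edgeR adjusted p = 0.0740) but was lower at 16.5 than at 12 months by the same test, with a log2 fold change of -1.16 (edgeR adjusted p = 0.0354), beside the fall of miR-183-5p. Without the 12-month library highest in miR-205-5p it was -1.10 with an edgeR adjusted p of 0.0645.

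Over age, 4 of 7 red-cell, 1 of 4 myeloid and 2 of 3 lymphoid microRNAs were called, beside 39.1% of all 345. The call on the myeloid list was miR-142a-3p (edgeR adjusted p = 7.75e-05), and miR-223-3p was not called (edgeR adjusted p = 0.0790). The reads of miR-486-5p are listed under both copies, and counted once they leave 3 of 6 red-cell microRNAs called. At 16.5 against 12 months their median log2 fold changes were -0.06, -0.19 and 0.79, beside -0.07 over all 345, of which 13.9% were called, and the 1 call among them was miR-342-3p, a lymphocyte microRNA, which rose by 1.05 (edgeR adjusted p = 0.00021). The lymphoid sum ranged from 107.2 to 395.6 CPM at 12 months and from 140.8 to 825.5 CPM at 16.5 months. No part of these lists in the levels of the cluster was tested.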

How the data were processed

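Small RNA of total mouse blood was sequenced from TruSeq libraries. The authors discarded short reads, quantified known mature microRNAs with miRDeep2 against miRBase precursors without mismatches, summed copies from several locations, and deposited the table as raw counts. Their processing notes name FastQC 0.11.5. A second deposited table, of normalized values, was each raw column times 1 constant and was not used. Columns gave the age but not the replicate number of the labels (13.5 months is written as a whole month there), so each column was 1 unnumbered library of its age. No per-sample column was left over (0).

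The tool for the counts was edgeR 4.0.16 under R 4.3.3 (TMM, glmQLFit, glmQLFTest, 4 age groups, 40 libraries, 6 contrasts, Benjamini-Hochberg adjustment over all microRNAs tested, threshold 0.05). Two-sided intervals are at 95%. Filters were more than 100 reads in 20 libraries (105 microRNAs) and, for a member missing it, more than 1 read in 20 (345 microRNAs). Levels are CPM with TMM factors of the 345, as log2 with a prior count of 2. The table lists the reads of miR-486-5p under both of its copies, so the totals hold them 2 times, and TMM-scaled CPM do not sum to a fixed total. Ratios and relations were tested by two-sided permutation (1e+05 resamples) in SciPy 1.17.1. Upper limits for a count of 0 use 3 counts. Amplified reads without molecular identifiers are not independent molecules, so such limits and intervals cover counting error only. The fits were tested on simulated data. No libraries of an age were duplicates (smallest chi-square per degree of freedom 19.4 over 180 pairs).

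Named microRNAs were the members, the opposite arms of their hairpins, miR-1271-5p with the seed of miR-96-5p, the 3 microRNAs most correlated with each tested member, and context lists (neural and eye, platelet and endothelial, lymphoid, myeloid, red-cell). Members and lists were chosen with earlier results of these data known. Outside these groups, miR-200b-3p was added after its values were seen. Positions came from GENCODE M21 and RefSeq (GRCm38). As alternatives, library totals, median-ratio factors, other filters, DESeq2 1.42.0, 1 RUVs factor, removal of miR-486 or of repeated rows, fits to 2 ages, another pseudocount, medians and leaving out each library were tried. A block, shares in percent and leaving out 1 or both of 2 libraries were chosen after seeing the data.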

Additional observations from a re-analysis of the deposited data

Results flagged for a closer look

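In 4 of 16 groups of 10 libraries (the levels of the 3 members and the log2 ratio of miR-183-5p to miR-182-5p, at 4 ages), the highest library stood farther from its neighbour than Dixon's critical gap allows. For normally distributed values without ties, chance exceeds that gap in about 1 of 20 groups. Of the 4 flagged groups, 2 concern miR-182-5p. At 12 months its highest log2 level was 7.92 and the next 5.96, a gap of 0.508 of the range. At 16.5 months the highest was 7.14 and the next 5.09, a gap of 0.707 of the range. Of the same libraries, the 12-month one was also the highest in miR-183-5p (12.1 CPM), and the 16.5-month one was not (0.575 CPM). The other 2 concern miR-96-5p and rest on few reads. Many of its libraries are tied at 0 reads, so the rate of 1 in 20 does not apply to them. At 13.5 months its highest log2 level was -0.35, from 4 reads, and the next -1.56, a gap of 0.566 of the range. At 15 months the highest was -1.30, from 1 read, with the 9 other libraries at 0 reads, so that this read alone fixed the flag.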

How the results depend on the processing

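Beside leaving out single libraries, 173 alternative values were computed for 21 results, of which 148 kept their direction and side of the threshold. DESeq2, median-ratio factors, the other filters and repeated rows counted once changed no direction or call. With library totals, the log2 fold change of miR-182-5p was -0.96 at 15 v 12 months (now called), -0.43 for 15 v 13.5, -0.25 for 16.5 v 13.5 and 0.18 for 16.5 v 15 months. miR-183-5p was then at 0.028 (13.5 v 12), -1.55 (15 v 12) and -1.58 (15 v 13.5 months), the last 2 now called. The value of miR-183-5p at 13.5 v 12 months, near 0, turned positive also with 1 RUVs factor (0.15), without miR-486 (0.0058) and with only the 2 ages fitted (0.041).

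Chosen after seeing the data, leaving out the 2 libraries highest in miR-205-5p gave miR-182-5p 0.22 (13.5 v 12), 0.54 (15 v 12), -0.44 (16.5 v 13.5) and -0.77 (16.5 v 15 months, now called). It gave miR-183-5p 0.84 (13.5 v 12), 0.033 (15 v 12) and -0.87 for 16.5 v 12 months (edgeR adjusted p = 0.164, no longer called). The log2 ratio at 16.5 v 12 months was then -0.84 (permutation adjusted p = 0.105). With a pseudocount of 5 the ratio was 0.19 at 15 v 12 and -0.29 at 16.5 v 12 months, neither called, and with medians it was 0.66 at 13.5 v 12 (permutation adjusted p = 0.0610) and -1.14 at 16.5 v 12 months (permutation adjusted p = 0.0535). Shares in percent changed no call.

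The replicate numbers of the labels could not serve as a block because the columns do not carry them. The number recurring in the column names was tried as a replicate block after seeing the data: miR-183-5p was at 0.44 at 13.5 v 12 and -1.36 at 16.5 v 12 months (edgeR adjusted p = 0.0503), miR-182-5p at -0.12 at 16.5 v 13.5 months. Over the 105 microRNAs, deviations from the age means correlated at -0.867 to 0.860 over 60 pairs of libraries of equal number (24 over 0.1), and 4 of 60 comparisons were best with the own number, so the number was not shown to pair the libraries. Calls over age went from 64 to 66 among the 105 and from 135 to 119 among the 345, and at 16.5 v 12 months from 48 to 32 among the 345.

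Leaving out each library in turn gave 800 values, of which 769 kept direction and call. For miR-182-5p the ranges were -0.93 to 0.19 (13.5 v 12), -0.41 to 0.61 (15 v 12), -1.01 to 0.39 (16.5 v 12), -0.44 to 0.47 (16.5 v 13.5) and -0.77 to 0.0038 (16.5 v 15 months). For miR-183-5p they were -0.32 to 0.85 (13.5 v 12), -1.04 to 0.034 (15 v 12) and -2.01 to -0.88 (16.5 v 12 months, no longer called without the 12-month library highest in miR-182-5p). For the ratio they were 0.60 to 0.87 at 13.5 v 12 (3 of 40 not called, permutation adjusted p up to 0.0515), -1.22 to -0.87 at 16.5 v 12 (10 of 40 not called, up to 0.0692) and -0.90 to -0.55 at 16.5 v 15 months (2 of 40 called). The cause of these changes was not tested. With a median of 11 reads per library for miR-183-5p and 0 for miR-96-5p, depth limits both.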

Other observations

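The column names carry 10 numbers that recur at every age, and what they stand for is not given in the sources used here. The library that shares its number with the 12-month library highest in miR-182-5p ranked 8 of 10 at 13.5 months (24.4 CPM), 1 at 15 months (79.6 CPM) and 2 at 16.5 months (33.8 CPM). For miR-183-5p that number ranked 1, 6, 1 and 2 from the youngest to the oldest age. The number of the 16.5-month library highest in miR-182-5p ranked 6 at 12 months (24.5 CPM), 2 at 13.5 months (47.2 CPM) and 2 at 15 months (78.5 CPM). These libraries were chosen for their values, and the ranks were not tested.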
